A study of Mus musculus with 11 samples.

Results

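Inward rectifier potassium channel (Kir) genes were described across RNA-Seq libraries of mouse dorsal root ganglia (DRGs). The members were the rows of the deposited table whose gene name was *Kcnj10*, *Kcnj16*, *Kcnj3*, *Kcnj6*, *Kcnj9*, *Kcnj2*, *Kcnj4*, *Kcnj12*, *Kcnj11* or *Kcnj13*, which gave 10 of 36670 genes. The 11 libraries, 1 per mouse, fell into 4 groups by genotype (WT or *Gpr37l1* KO) and treatment (control or paclitaxel, PTX, with ganglia taken at 4 weeks): WT control (n = 3), WT PTX (n = 3), KO control (n = 3) and KO PTX (n = 2). PTX is used in chemotherapy and brings on neuropathic pain, and *Gpr37l1* encodes an orphan receptor of satellite glial cells (SGCs), the cells that wrap the cell bodies of sensory neurons. KO mice carried the constitutive *Gpr37l1* tm1Lex allele, which is not restricted to any cell type, on a C57BL/6 background, and the mice not carrying it were littermates. WT controls were called naive by the study, and the dose of PTX, the number of injections and the age of the sequenced mice were not given in the sources used here. In each group replicate 3 was labelled female and the other replicates male, so that a difference between sexes cannot be told apart from one between replicate numbers. The comparisons asked whether PTX, loss of *Gpr37l1* or both were accompanied by a change in mRNA of these channels.

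Kir channels pass potassium more easily into the cell than out of it and set the resting potential. *Kcnj10* encodes Kir4.1, the main potassium channel of SGCs, which takes up potassium released by active neurons, and *Kcnj16* encodes Kir5.1, which joins Kir4.1 in a mixed channel. *Kcnj3*, *Kcnj6* and *Kcnj9* encode G protein-gated subunits (GIRK1, GIRK2 and GIRK3) opened by receptors that couple to Gi and Go proteins, *Kcnj2*, *Kcnj12* and *Kcnj4* encode strongly rectifying subunits of the Kir2 family, *Kcnj11* encodes the pore of ATP-sensitive (KATP) channels, and *Kcnj13* encodes Kir7.1 of transporting epithelia.

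All members carry the codons of the potassium selectivity filter, the narrowest part of the pore. The coding sequence around the filter is shown for 3 members, of the glial, GIRK and KATP kinds, to display how alike the genes are where the family is defined, since reads can be assigned to a gene only where the genes differ. The capitals mark the filter codons, and the bases come from the GENCODE M21 transcripts of GRCm38.

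Kcnj10: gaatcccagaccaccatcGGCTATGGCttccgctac

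Kcnj3: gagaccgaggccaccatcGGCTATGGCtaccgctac

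Kcnj11: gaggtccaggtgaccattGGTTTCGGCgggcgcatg

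These windows lie at chr1:172369290-172369325 (plus strand) for *Kcnj10*, chr2:55437615-55437650 (plus strand) for *Kcnj3* and chr7:46099487-46099522 (minus strand) for *Kcnj11*, each within 1 coding exon. *Kcnj10* and *Kcnj3* spelled the filter alike and matched at 31 of 36 bases, whereas *Kcnj10* and *Kcnj11* matched at 20 of 36. Longer words separated all members: no stretch of 50 coding bases of any member occurred in the transcripts of another Kir gene. Such stretches were shared with overlapping genes of the opposite strand for *Kcnj3* (42.0% of its words, with the lincRNA *Gm26794*), *Kcnj13* (44.2%, with *Gigyf2*) and *Kcnj9* (10.9%, with the antisense RNA *Gm36937*). The libraries were strand specific, but the sources used here do not say whether strand was used in counting, so the values of these 3 genes carry that limit.

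The deposited estimated counts summed to between 52735648 and 80348732 per library. All 10 sensory neuron markers and all 8 SGC markers were detected in every library, with summed FPKM of 4322 to 5627 and 1459 to 1952. The 4 libraries under 60000000 counts (WT control 1, WT PTX 3 and both KO PTX libraries) also had the highest sums of 10 spinal cord markers, from 9.0 to 25.8 FPKM against 3.78 to 6.78 in the other 7. Both KO PTX libraries and no KO control were among these 4. In KO mice, PTX therefore cannot be told apart from depth or spinal cord signal for any gene. The sum of 8 skeletal muscle markers ranged from 3.58 to 593 FPKM. *Gpr37l1* itself stood at 27.6 to 35.7 FPKM in WT controls, 14.6 to 31.7 in WT PTX mice, 0.21 to 0.29 in KO controls and 0.60 and 1.15 in KO PTX mice, as labelled. In bulk tissue, fewer cells of a type and less RNA per cell cannot be told apart.

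FPKM, a fragment count scaled for transcript length and library size, was used to compare levels between genes. *Kcnj10* had the highest FPKM of all 15 *Kcnj* genes in each of the 11 libraries, and *Kcnj12* and then *Kcnj3* came next in each. In WT controls the mean FPKM was 17.7 ± 4.22 (SD, n = 3) for *Kcnj10*, 8.67 ± 0.140 for *Kcnj12* and 4.80 ± 1.08 for *Kcnj3*. The mean of *Kcnj10* lay above those of 90.7% of the 29220 genes with any signal in WT controls, and that of *Kcnj3* above those of 74.3%. *Kcnj11* (2.24 ± 0.402), *Kcnj4* (1.92 ± 0.696), *Kcnj2* (1.30 ± 0.484), *Kcnj16* (1.24 ± 0.225) and *Kcnj13* (0.937 ± 0.370) followed. *Kcnj9* (0.457 ± 0.114) and *Kcnj6* (0.0567 ± 0.0208) closed the order. Of the summed FPKM of the 10 genes, *Kcnj10* held 37.4% to 54.2% over the 11 libraries with a median of 41.6%, *Kcnj12* 19.2% to 22.9% and *Kcnj3* 9.47% to 16.3%.

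The order fixed in the WT controls was tested in the other 8 libraries with the log2 ratio of FPKM + 0.1 within each library (exact two-sided sign-flip test, Benjamini-Hochberg adjusted over 9 neighbouring pairs). Neighbours differed for 5 of the 9 pairs, at an adjusted p of 0.0141 each, which came from the smallest p that 8 libraries allow (0.00781). These were *Kcnj10* over *Kcnj12* (log2 ratio 0.94 ± 0.15, SD), *Kcnj12* over *Kcnj3* (0.50 ± 0.14), *Kcnj3* over *Kcnj11* (1.42 ± 0.24), *Kcnj4* over *Kcnj2* (0.69 ± 0.35) and *Kcnj9* over *Kcnj6* (1.89 ± 0.41), each in the same order in 8 of 8 libraries. *Kcnj11* and *Kcnj4* did not differ beyond their spread (0.12 ± 0.20, adjusted p = 0.125 by the exact test). *Kcnj2* and *Kcnj16* did not keep their order, with *Kcnj2* the higher in 1 of 8 libraries (adjusted p = 0.105 by the exact test). *Kcnj16* over *Kcnj13* and *Kcnj13* over *Kcnj9* each held in 6 of 8 libraries (adjusted p = 0.0603 by the exact test for both).

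**Figure D1:**
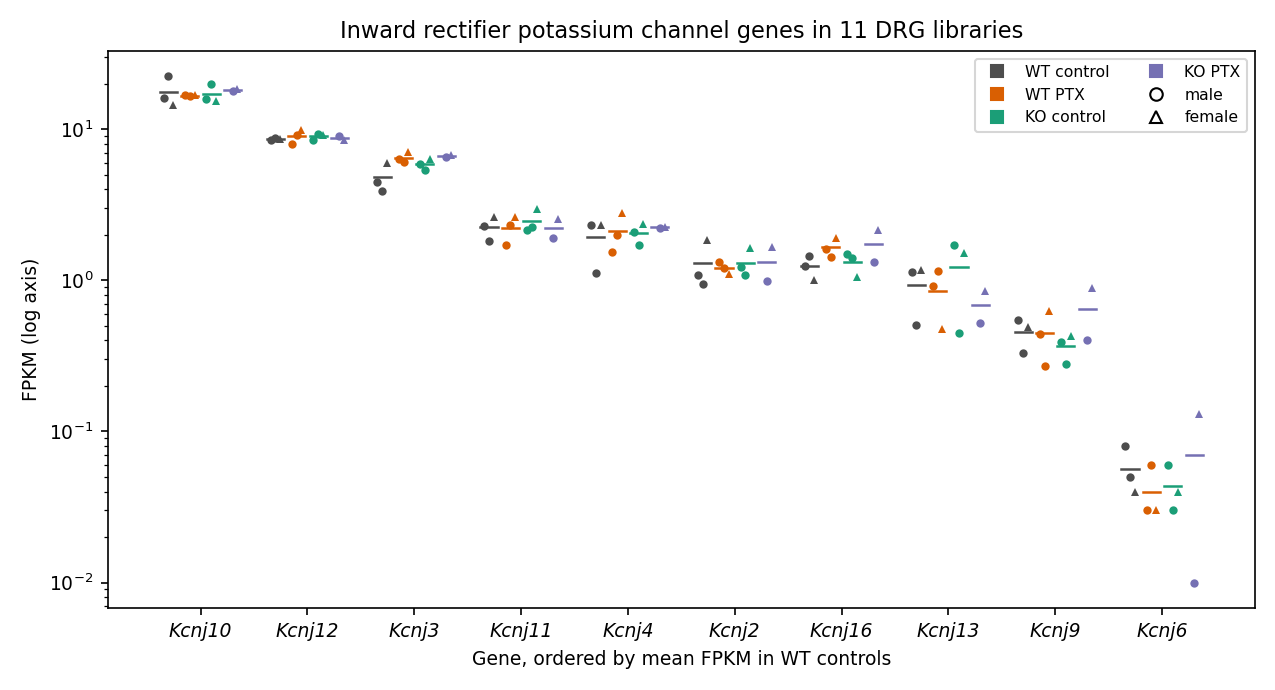
FPKM (log axis) of the 10 inward rectifier genes in every library; each point is 1 library, coloured by group with circles for male and triangles for female mice, and each short line is a group mean. *Kcnj10* lies between 14.6 and 22.5 in all 11 libraries, *Kcnj12* between 7.97 and 9.91, and *Kcnj6* at 0.13 or lower.

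Variation between libraries differed among the genes. *Kcnj12* varied least, with the highest of 11 libraries 1.24 times the lowest and an SD of 0.10 within groups on the log2(FPKM + 0.1) scale. For *Kcnj10* that SD was 0.21, for *Kcnj3* 0.18, for *Kcnj11* 0.27 and for *Kcnj16* 0.28. *Kcnj13* had the largest SD on that scale (0.69), with a 3.80-fold range from 0.45 to 1.71 FPKM, while *Kcnj6*, near the lower end of detection, had the widest ratio of highest to lowest (from 0.01 to 0.13 FPKM).

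Differences between groups were tested with edgeR's quasi-likelihood test on the estimated counts of all 11 libraries, with sex as a covariate, for 15087 genes whose FPKM averaged 0.5 or more. The filter kept 8 of the 10 members and left out *Kcnj9* and *Kcnj6*. After Benjamini-Hochberg adjustment over all genes tested, 0 of the 8 members were called at an adjusted p under 0.05 in any of 5 contrasts, where the share of all genes called was 0.00663% for PTX in WT mice, 0.00663% for it in KO mice, 0.00663% for KO against WT in controls, 0.0133% for KO against WT after PTX and 0.00663% for the genotype difference in the PTX effect. At an unadjusted p under 0.05, 1 of 8 members was found for PTX in WT mice (13.5% of all genes tested), 0 in KO mice (4.32%), 1 for KO against WT in controls (7.54%), 0 for KO against WT after PTX (3.55%) and 0 for the genotype difference (6.3%). The member was *Kcnj3* both times. DESeq2 called 1 member, *Kcnj3*, for PTX in WT, where it called 2.05% of all genes tested, and 0 in the other 4 contrasts. limma on log2(FPKM + 1) called 0 in all 5. The median log2 fold change of the 8 members was 0.02 for PTX in WT mice against -0.01 over all genes tested, 0.01 in KO mice against -0.01, 0.10 for KO against WT in controls against 0.00, 0.00 for KO against WT after PTX against -0.01 and -0.08 for the genotype difference against -0.01.

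**Figure D2:**
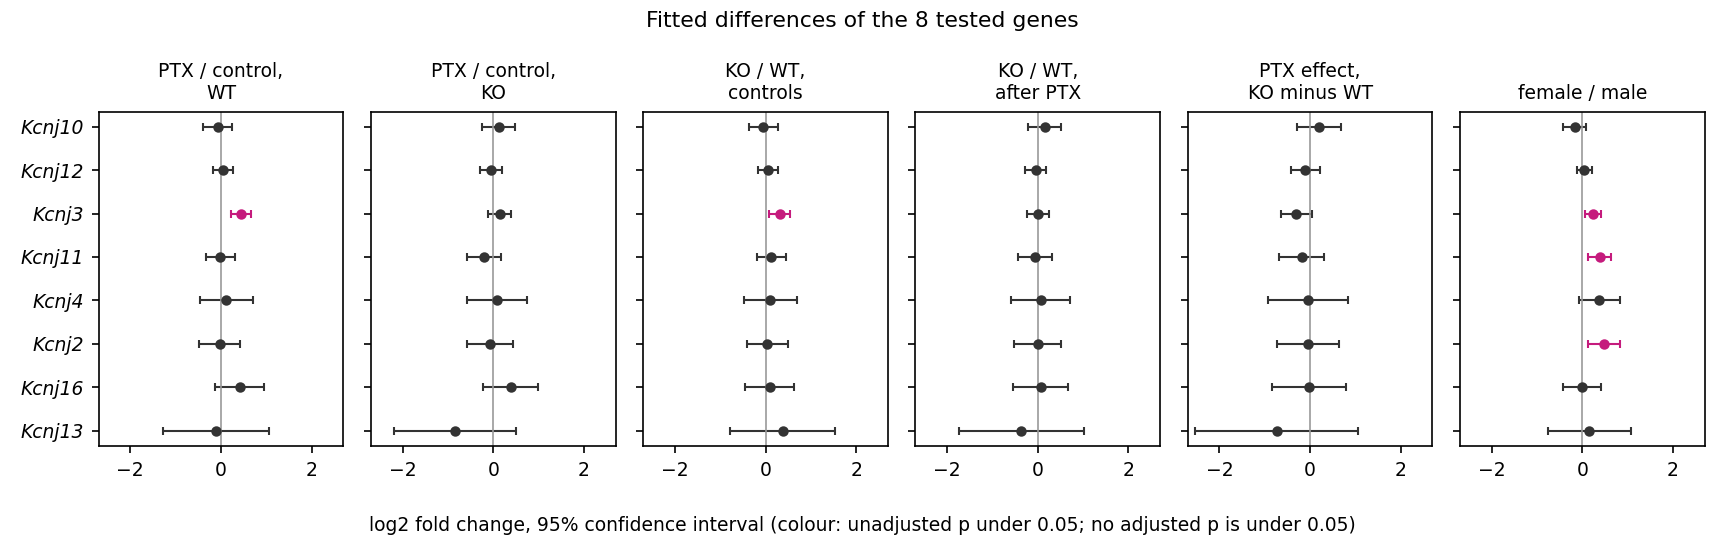
Log2 fold changes of the 8 tested genes from edgeR with 95% confidence intervals, 1 panel per contrast; coloured points have an unadjusted p under 0.05, and no adjusted p is under 0.05. *Kcnj3* stands at 0.44 for PTX in WT and at 0.31 for KO against WT in controls, and the intervals are narrowest for *Kcnj12* and widest for *Kcnj13*.

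*Kcnj10* is the Kir gene tied to SGCs, and it was not called in any contrast. Its FPKM was 16.01, 22.50 and 14.58 in WT controls, 16.80, 16.58 and 16.81 in WT PTX mice, 15.91, 20.03 and 15.28 in KO controls, and 18.00 and 18.35 in KO PTX mice. The spread was widest among the controls, where WT control 2 and KO control 2 were the highest of all libraries, and the SD was 0.130 FPKM in WT PTX and 0.247 FPKM in KO PTX mice. The groups overlapped in every comparison except after PTX, where both KO libraries lay above the 3 WT libraries (mean FPKM 18.2 against 16.7). Such separation of 2 against 3 libraries was found for 20.2% of all genes tested. Both KO PTX libraries, but only WT PTX 3 of the WT PTX libraries, were under 60000000 counts.

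The fitted log2 fold change of *Kcnj10* was -0.07 ± 0.14 (SE) for PTX in WT, with a 95% confidence interval of -0.40 to 0.25 and an adjusted p of 0.837 (edgeR). That interval spans a fold change from 0.760 to 1.19. It was 0.12 ± 0.16 for PTX in KO (interval -0.24 to 0.48, adjusted p = 0.999), -0.05 ± 0.14 for KO against WT in controls (-0.37 to 0.27, 0.937), 0.15 ± 0.16 for KO against WT after PTX (-0.21 to 0.51, 0.993) and 0.19 ± 0.22 for the genotype difference in the PTX effect (-0.29 to 0.68, 0.817). The signs were not stable. Without WT control 2, the library with the most *Kcnj10*, the value for PTX in WT was 0.11, that for KO against WT in controls 0.14 and the genotype difference -0.01.

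Because the share of glia can differ between dissections, *Kcnj10* was also set against the mean log2(FPKM + 1) of 8 SGC markers (*Fabp7*, *Glul*, *Slc1a3*, *Gja1*, *Apoe*, *Ednrb*, *S100b* and *Sparc*) in the same library. The difference was -1.80 ± 0.26 (SD, n = 3) in WT controls, -1.80 ± 0.08 in WT PTX mice, -1.84 ± 0.18 in KO controls and -1.68 ± 0.01 (n = 2) in KO PTX mice. It moved by 0.05 between KO and WT with treatment held fixed (exact two-sided permutation test over 200 arrangements, p = 0.615, adjusted p = 0.82 over 4 ratio tests). Between PTX and control with genotype held fixed it moved by 0.08 (exact permutation p = 0.47, adjusted p = 0.82). The smallest p of this design is 0.005. Neither move was larger than the spread between libraries.

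Of these markers 1 had an unadjusted p under 0.05 for PTX in WT (13.5% of all genes tested), *Fabp7*, a fatty acid-binding protein of SGCs, at 221, 223 and 145 FPKM in WT controls against 164, 183 and 98.7 in WT PTX mice. Its log2 fold change for PTX in WT was -0.42 ± 0.11 (adjusted p = 0.227 with edgeR, 0.0109 with DESeq2), while the 8 markers together had a median of 0.03. Of the 8 SGC markers, 0 were called by edgeR in any contrast. At an unadjusted p under 0.05, *Fabp7* was also lower for KO against WT in controls (-0.40, 1 of 8 markers, 7.54% of all genes tested). For PTX in KO 2 of 8 were found (4.32%), *Fabp7* at -0.34 and *Slc1a3* at 0.52. For KO against WT after PTX 2 of 8 were found (3.55%), *Fabp7* at -0.31 and *Slc1a3* at 0.45. For the genotype difference 1 of 8 was found (6.3%), *Slc1a3* at 0.51.

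*Kcnj16* was low beside its partner. Its FPKM was 1.25, 1.46 and 1.01 in WT controls, 1.61, 1.43 and 1.92 in WT PTX mice, 1.5, 1.40 and 1.06 in KO controls, and 1.32 and 2.14 in KO PTX mice. Expressed against *Kcnj10* in the same library, *Kcnj16* made up 6.49% to 7.81% in WT controls, 8.62% to 11.4% in WT PTX mice, 6.94% to 9.43% in KO controls, and 7.33% and 11.7% in KO PTX mice. In WT mice the 3 PTX libraries were all above the 3 controls, and in KO mice the groups overlapped. Among single genes, FPKM did not overlap in that WT comparison for 14.2% of all genes tested, and no such share was taken for ratios.

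The log2 ratio of *Kcnj16* to *Kcnj10* was higher by 0.34 in PTX than in control libraries with genotype held fixed (0.45 in WT, 0.24 in KO; exact two-sided permutation p = 0.065, adjusted p = 0.26), which missed the threshold. The value was 0.19 without KO PTX 3 and 0.50 without KO PTX 2, the ends of its range with each library left out. Each of these leaves a single KO PTX library. Between KO and WT it differed by 0.02 (exact permutation p = 0.915, adjusted p = 0.915). *Kcnj16* alone missed the threshold in all 5 contrasts, with a lowest unadjusted p of 0.121.

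**Figure D3:**
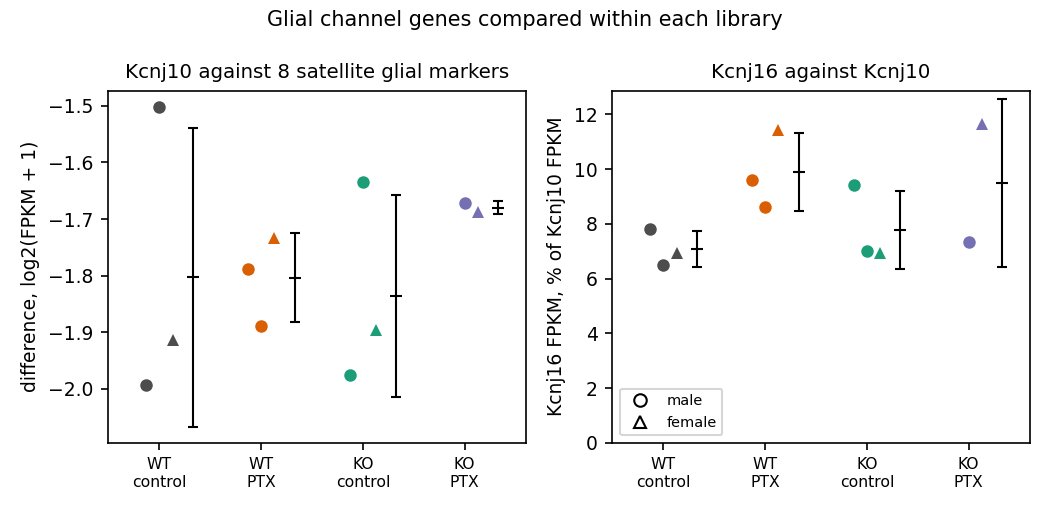
Left, *Kcnj10* minus the mean of 8 SGC markers on the log2(FPKM + 1) scale; right, *Kcnj16* FPKM as a percentage of *Kcnj10* FPKM; points are libraries (circles male, triangles female) and black bars are the group mean ± SD. The *Kcnj16* share lies at 6.49% to 7.81% in WT controls and at 8.62% to 11.4% in WT PTX mice.

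Kir4.1 is held at the membrane by scaffold proteins of the dystrophin complex and by PDZ and caveolar proteins, and 10 such genes were examined. All 10 were tested, and 0 were called by edgeR in any contrast or by DESeq2. At an unadjusted p under 0.05 with edgeR, 1 was found for PTX in WT (13.5% of all genes tested) and 3 for PTX in KO (4.32%). Also found were 1 for KO against WT in controls (7.54%), 1 for KO against WT after PTX (3.55%) and 1 for the genotype difference (6.3%). Their median log2 fold change was 0.11 for PTX in WT and -0.06 for PTX in KO. The 3 with the highest FPKM were *Dag1* (22.8 to 30.3 over the 11 libraries), the dystroglycan precursor, *Cav1* (20.1 to 26.3), caveolin 1, and *Utrn* (12.4 to 18.6), utrophin.

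Among the GIRK subunits, *Kcnj3* was the only abundant one. Its FPKM was 4.46, 3.93 and 6.00 in WT controls, 6.31, 6.11 and 7.03 in WT PTX mice, 5.90, 5.41 and 6.38 in KO controls, and 6.54 and 6.78 in KO PTX mice. WT controls held the 2 lowest values of all libraries. The remaining library of that group, the female one at 6.00, lay within the range of the KO controls and below every PTX library. It was also the lowest of the female libraries (7.03 in WT PTX, 6.38 in KO control and 6.78 in KO PTX mice). PTX and control libraries did not overlap in WT mice, which held for 14.2% of all genes tested, nor in KO mice, which held for 21.6%. KO and WT controls overlapped for *Kcnj3* and for each of the other 7 tested members (9.28% of all genes tested did not overlap).

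For PTX in WT, the log2 fold change of *Kcnj3* was 0.44 ± 0.10 (SE), a fold of 1.36 with a 95% confidence interval of 1.16 to 1.59. Its unadjusted p was 0.0013 and its adjusted p 0.207 with edgeR, so it was not called, whereas DESeq2 called it (0.44 ± 0.11, adjusted p = 0.00895). Over 23 settings, the value stayed between 0.35 and 0.56 and the adjusted p between 0.00895 and 0.685. For KO against WT in controls it was 0.31 ± 0.10 (interval 0.09 to 0.53, unadjusted p = 0.0116, adjusted p = 0.657 with edgeR; adjusted p = 0.33 with DESeq2). These contrasts share the WT controls, 2 of which were the lowest of all libraries, so that they are not independent of each other. Whether reads of *Gm26794*, which overlaps *Kcnj3* on the opposite strand, entered the *Kcnj3* values was not tested.

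The remaining contrasts of *Kcnj3* were smaller. The log2 fold change was 0.14 ± 0.11 for PTX in KO (interval -0.11 to 0.39, adjusted p = 0.999 with edgeR) and 0.00 ± 0.11 for KO against WT after PTX (-0.25 to 0.26, 0.996). The genotype difference in the PTX effect was -0.31 ± 0.15 (interval -0.64 to 0.03, unadjusted p = 0.072, adjusted p = 0.724 with edgeR), so that the PTX effect was not shown to differ between genotypes. With each library left out, the value for PTX in KO ran from 0.03 (without KO PTX 2) to 0.24 (without KO PTX 3). The genotype difference ran from -0.41 to -0.20, and was -0.41 without WT control 3 (unadjusted p = 0.0121, adjusted p = 0.358 with edgeR) and -0.20 without KO PTX 3 or WT control 2.

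Other markers moved in the same WT comparison. The sum of 7 macrophage markers was 28.6 to 38.8 FPKM in WT controls and 20.8 to 25.7 in WT PTX mice, with all 7 lower, 6 of them at an unadjusted p under 0.05 (13.5% of all genes tested) and 0 called by edgeR. DESeq2 called 3 of the 7, *Csf1r*, *Mrc1* and *C1qb*, all lower after PTX, with adjusted p of 0.0342, 0.0183 and 0.00205. Over all genes tested, DESeq2 called 2.05% for PTX in WT. The sum of 8 muscle markers was 15.8 to 543 FPKM in WT controls and 3.58 to 177 in WT PTX mice, and all 8 were lower. The 10 neuron markers summed to 4652 to 5627 and 4322 to 4825 FPKM, with 5 higher and 5 lower, of which 5 had an unadjusted p under 0.05 and 0 were called by edgeR. DESeq2 called 1 of them, *Tubb3*, a neuronal tubulin, at -0.29 (adjusted p = 0.0253), and 1 of the spinal cord markers, *Aqp4*, at 0.64 (adjusted p = 0.0497). No defining marker of the macrophage, muscle and neuron lists was at 0 in any library. With the muscle score as a covariate, the *Kcnj3* value was 0.53 (adjusted p = 0.0915 with edgeR), and with the spinal cord score 0.45 (adjusted p = 0.175). Without the 4 libraries under 60000000 counts it was 0.51 (adjusted p = 0.407). The part of macrophages and of neurons in the result was not tested.

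The partners of GIRK1 were near the lower end of detection. *Kcnj9* stood at 0.55, 0.33 and 0.49 FPKM in WT controls, 0.44, 0.27 and 0.63 in WT PTX mice, 0.39, 0.28 and 0.43 in KO controls, and 0.40 and 0.89 in KO PTX mice. *Kcnj6* ranged from 0.01 to 0.13 FPKM, or 4 to 62 estimated counts. *Kcnj5*, which encodes GIRK4 and is no member, was listed at 0 in 9 of 11 libraries. Together these partners came to 5.40% to 15% of the *Kcnj3* FPKM, with a median of 7.63%. KO PTX 3, the library with the highest spinal cord marker sum (25.8 FPKM), also had the highest *Kcnj9*, *Kcnj6* and *Kcnj16*, and the part of spinal cord tissue in these values was not tested. Of the 10 spinal cord markers 5 passed the filter, and *Olig2* and *Opalin* were listed at 0 in 7 of 11 libraries. With edgeR's own count filter in place of the FPKM filter, *Kcnj9* and *Kcnj6* were tested and had adjusted p of 0.78 or more in the 5 contrasts.

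GIRK channels are opened by the beta and gamma subunits of G proteins and are slowed or sped by RGS proteins. A list of 20 genes of G protein subunits, RGS proteins and partners was examined. It also held the alpha subunit genes *Gnai1*, *Gnai2*, *Gnai3* and *Gnao1*. Of the 19 tested, 0 were called by edgeR in any contrast, and 8 had an unadjusted p under 0.05 for PTX in WT (13.5% of all genes tested) against 0 for PTX in KO (4.32%). These 8 did not share a direction. Among them were the alpha subunit genes *Gnai1* (log2 fold change 0.29), *Gnao1* (0.22) and *Gnai2* (-0.23), and the beta subunit gene *Gnb2* (-0.23). Of the 19 tested, 12 were higher and 7 lower for PTX in WT. The difference between the genotypes was itself at an unadjusted p under 0.05 for 3 of 19 (6.3% of all genes tested), with 0 called. DESeq2 called 2 for PTX in WT, where it called 2.05% of all genes tested. They were *Rgs7bp* (0.36 ± 0.10), an anchor of R7 RGS proteins, and *Gng2* (0.26 ± 0.08), a gamma subunit, with adjusted p of 0.0223 and 0.0382; both were named after their values were seen. The median over the 19 was 0.07. The most abundant were *Rgs4* (338 to 482 FPKM), *Gnb1* (164 to 193) and *Gng3* (148 to 189).

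Of 10 receptors known to open GIRK channels, 8 were tested and 0 were called by edgeR or DESeq2 in any of the 5 contrasts, with 1 at an unadjusted p under 0.05 with edgeR for PTX in KO (4.32% of all genes tested) and 0 in the other 4. *Gabbr1* (59.0 to 71.8 FPKM) and *Gabbr2* (20.0 to 30.3), which together form the GABA-B receptor, and *Adora1* (18.1 to 22.6), the adenosine A1 receptor, had the highest levels. All 3 exceeded *Kcnj3*, the highest GIRK subunit, in FPKM in every library.

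The Kir2 genes showed no called difference. *Kcnj12* (Kir2.2) was at 8.53, 8.81 and 8.68 FPKM in WT controls, 7.97, 9.12 and 9.91 in WT PTX mice, 8.44, 9.32 and 9.23 in KO controls, and 8.98 and 8.45 in KO PTX mice. These values overlapped in every comparison, and the log2 fold changes ran from -0.10 to 0.05 over the 5 contrasts with SEs of 0.10 to 0.15. Kir2 channels are also known from striated muscle. *Kcnj12* was at 9.91 FPKM in WT PTX 3, which had the lowest muscle marker sum (3.58), and at 9.32 in KO control 2, which had the highest (593), and the part of muscle in these values was not tested.

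*Kcnj4* (Kir2.3) stood at 2.33, 1.12 and 2.32 FPKM in WT controls, 1.54, 2.0 and 2.81 in WT PTX mice, 2.10, 1.71 and 2.36 in KO controls, and 2.22 and 2.27 in KO PTX mice. *Kcnj2* (Kir2.1) stood at 1.09, 0.95 and 1.85, at 1.32, 1.2 and 1.10, at 1.22, 1.08 and 1.63, and at 0.99 and 1.67 FPKM in the same groups. All groups overlapped for both genes. The fold changes lay between -0.04 and 0.12 on the log2 scale for *Kcnj4* and between -0.08 and 0.04 for *Kcnj2*.

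KATP channels couple potassium flow to the energy state of the cell and are built from a Kir6 pore and a sulfonylurea receptor. *Kcnj11* (Kir6.2) stood at 2.29, 1.82 and 2.62 FPKM in WT controls, 1.71, 2.34 and 2.64 in WT PTX mice, 2.17, 2.25 and 2.95 in KO controls, and 1.91 and 2.56 in KO PTX mice. The groups overlapped, and the log2 fold changes lay between -0.20 and 0.13. *Kcnj8*, which encodes the vascular Kir6.1 and is no member, was at 0.65 to 1.32 FPKM, or 24.6% to 57.6% of *Kcnj11*.

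The sulfonylurea receptors followed the same order. *Abcc8* (SUR1), the neighbour of *Kcnj11* on chromosome 7 at 4.29 kb, was at 1.18 to 2.29 FPKM, and *Abcc9* (SUR2), 16.2 kb from *Kcnj8* on chromosome 6, at 0.39 to 0.81. Of these 2 genes 0 were called by edgeR or DESeq2 in the 5 contrasts. *Abcc8* had a log2 fold change of 0.45 ± 0.19 for PTX in WT (unadjusted p = 0.037, adjusted p = 0.356 with edgeR).

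*Kcnj13* (Kir7.1) is best known from the choroid plexus and the retinal pigment epithelium. Its FPKM was 1.13, 0.51 and 1.17 in WT controls, 0.92, 1.15 and 0.48 in WT PTX mice, 1.71, 0.45 and 1.51 in KO controls, and 0.52 and 0.85 in KO PTX mice. High and low libraries occurred in every group with 3 libraries, and the fold changes reached from -0.85 to 0.38 on the log2 scale with SEs of 0.52 to 0.81. *Ttr*, the defining choroid plexus transcript, was highest in WT control 1 (2.7 FPKM) and KO PTX 2 (2.68), which had 1.13 and 0.52 FPKM of *Kcnj13*, and stood at 0.86 in KO control 1, which had the most *Kcnj13*. *Gigyf2*, which overlaps *Kcnj13*, ranged from 2.84 to 3.55 FPKM. The part of choroid plexus tissue and of *Gigyf2* reads in the *Kcnj13* values was not tested.

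Sex was a covariate of the fit and was also read as a comparison, which was chosen after the values were seen. Of the 8 tested members, 3 had an unadjusted p under 0.05 (8.44% of all genes tested), and 0 were called by edgeR (0.0398% of all genes tested) or by DESeq2 (123 of 15087 genes). The 3 were all higher in the 4 female than in the 7 male libraries. *Kcnj11* was at 2.56 to 2.95 FPKM in female and 1.71 to 2.34 in male libraries, without overlap, as were 1.5% of all genes tested. Its log2 fold change was 0.38 ± 0.11 (interval 0.13 to 0.63, unadjusted p = 0.0069, adjusted p = 0.448 with edgeR).

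*Kcnj2* was higher by 0.47 ± 0.16 (interval 0.12 to 0.82) and *Kcnj3* by 0.23 ± 0.08 (0.06 to 0.40), with unadjusted p of 0.0132 and adjusted p of 0.5 for both with edgeR. Without WT control 3, the female library of that group, the *Kcnj3* value was 0.14 (unadjusted p = 0.0946, adjusted p = 0.999 with edgeR), and with each library left out the *Kcnj2* value ran from 0.33 to 0.67. The female library was the highest of its group in 4 of 4 groups for *Kcnj3* and *Kcnj11* and in 3 of 4 for *Kcnj2*. These orders were read after the values were seen, and the share of all genes tested with such an order was not counted. *Fabp7* was lower in the female libraries (84.2 to 145 FPKM against 138 to 223), and all 8 muscle markers and all 7 macrophage markers were lower with 0 called by edgeR. DESeq2 called *Fabp7* (-0.61, adjusted p = 1.26e-09) and the neuron markers *Calca* (-0.32, adjusted p = 0.0234) and *Tubb3* (-0.26, adjusted p = 0.0115), all lower in the female libraries. They were among the 123 of 15087 genes it called between the sexes. The part of these markers in the difference was not tested. Every female library is a replicate 3, so a difference of replicate number would look the same.

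**Figure D4:**
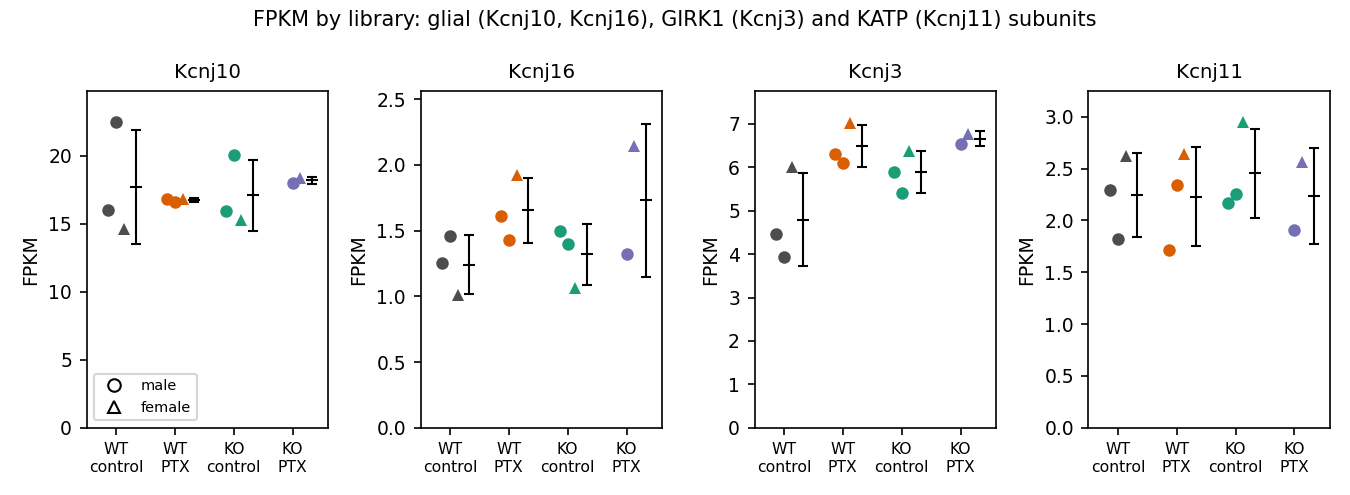
FPKM of *Kcnj10*, *Kcnj16*, *Kcnj3* and *Kcnj11* by group, each axis from 0; points are libraries (circles male, triangles female) and black bars are the group mean ± SD. The 4 female libraries hold the highest *Kcnj11* value of their group (2.56 to 2.95 FPKM), and the 2 male WT controls hold the lowest *Kcnj3* values (3.93 and 4.46).

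The members are scattered over the genome. *Kcnj10* (chr1:172341210-172374085, plus strand) lies 11.9 kb from *Kcnj9* on the opposite strand, and their mean FPKM in WT controls was 17.7 and 0.457. *Kcnj16* and *Kcnj2* lie 38.2 kb apart on chromosome 11 on the same strand at 1.24 and 1.30 FPKM. *Kcnj9*, *Kcnj10* and *Kcnj13* share chromosome 1 with the deleted *Gpr37l1*, at 37.2, 37.2 and 47.8 Mb from it. Whether sequence of the other mouse strain in the strain name reached these genes in KO mice was not tested.

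The genes whose log2(FPKM + 1) followed *Kcnj10* most closely over the 11 libraries were *Sh3glb1*, *Gnl3*, *Pfkfb3*, *Pvr* and *Trmt5*, with Pearson's r between 0.92 and 0.93. None of the 8 SGC markers was among them, and their r with *Kcnj10* ran from -0.36 for *Gja1* to 0.56 for *Ednrb*. For *Kcnj3* they were *Car10*, *Sri*, *Acpp*, *Patj* and *B3galt5*, with r between 0.978 and 0.983. These r are descriptions: the 11 points share groups, sex, depth and tissue composition.

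Of the 5 *Kcnj* genes that are no members, *Kcnj8* had the highest mean FPKM, followed by *Kcnj14* (0.18 to 0.89) and *Kcnj15* (0.11 to 0.36), while *Kcnj5* and *Kcnj1* were each listed at 0 in 9 of 11 libraries. Only *Kcnj8* was tested, and it was not called by edgeR in any contrast (unadjusted p of 0.243 or more in the 5 contrasts).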

How the data were processed

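Poly(A) RNA-Seq libraries of mouse DRGs (1 per mouse) were prepared with a strand-specific kit. Per the labels, cutadapt, FastQC, HISAT2, StringTie and the build mm10 were named in the submitters' processing notes, without versions. The authors deposited 1 table with an FPKM and an estimated count per gene and library. FPKM were scaled by the authors for transcript length and library size and rounded. The estimated counts were deposited without normalization; a count of 4 was held by 1117 to 1369 genes per library against 515 to 573 at 3, so they were not a plain tally of reads, and they were rounded to whole numbers before the fit. KO PTX libraries are numbered 1 and 2 in the titles and 2 and 3 in the descriptions, and the latter were used. The sources used here do not say whether mice were dissected and libraries prepared together, so p-values measure the spread between these libraries, which may be in part technical.

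Counts were fitted with edgeR 4.0.16 in R 4.3.3 (TMM normalization, quasi-likelihood test, sex as covariate, mean FPKM of at least 0.5, Benjamini-Hochberg threshold 0.05). SEs were derived from the log2 fold change and its F statistic. DESeq2 1.42.0 and limma 3.58.1 were alternatives. The plan put the replicate number in no main fit. Ratios used exact tests with a pseudocount of 0.1, or 1 where *Kcnj10* was set against markers. Coordinates are those of the deposited table or GENCODE M21 (GRCm38); those of *Kcnj11* differ between them. Every member was given by level, *Kcnj10* and *Kcnj3* with all contrasts, and other members with the range of their fold changes, with a single fold change where the unadjusted p was under 0.05; list genes were named when called by edgeR or by highest FPKM. List genes called by DESeq2 alone or named for an unadjusted p under 0.05, *Ttr* and *Abcc8* were named after their values were seen. The members, lists and tests were chosen with earlier results of these data known. The edgeR step was tested on simulated data. Python 3.11.15, scipy 1.17.1 and matplotlib 3.10.9 were also used.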

Additional observations from a re-analysis of the deposited data

How the results depend on the processing

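No member was called in any of the 5 contrasts, or between the sexes where the fit kept the sex term, under edgeR with other size factors, other filters, no sex term, a marker score as covariate, either limma fit or each library left out in turn (0 members in each case). The exception was DESeq2 for PTX in WT, which called 1 member. *Kcnj10* changed sign with the muscle score as covariate for KO against WT in controls (0.036) and PTX in KO (-0.0060), and *Kcnj3* for KO against WT after PTX with no filter (-0.0054) or the muscle score (-0.041). With each library left out, *Kcnj10* ran from -0.19 to 0.11 for PTX in WT, from -0.18 to 0.14 for KO against WT in controls and from -0.0067 to 0.34 for the genotype difference, and *Kcnj3* from 0.35 to 0.56 for PTX in WT and from -0.10 to 0.10 for KO against WT after PTX. The difference of *Kcnj10* from SGC markers between KO and WT ran from -0.0048 to 0.12, and the *Kcnj16* to *Kcnj10* ratio from -0.14 to 0.18. Between 5 and 7 neighbouring pairs differed. Without the 4 libraries under 60000000 counts, an alternative chosen after seeing the data that leaves no KO PTX library, *Kcnj10* for PTX in WT was -0.34 (adjusted p = 0.515, edgeR). The causes of these shifts were not tested.

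Over 15 same-numbered pairs of libraries the deviations from the group means correlated at a mean r of 0.05, with 5 pairs over 0.1. Over 30 pairs with different numbers the mean r was -0.03, with 4 pairs over 0.1. Deviations within a group sum to 0, and number 3 was always the female library. These r therefore cannot show whether the numbers pair the libraries. With the replicate block 0 members were called in each of the 5 contrasts, and *Kcnj3* for PTX in WT was 0.44 (adjusted p = 0.252, edgeR). With 2 or 3 libraries a group, the intervals of each tested member except *Kcnj12* reach past a 1.5-fold change in at least 1 contrast.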
